A study of Mus musculus with 24 samples.

Results

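The question was whether bone marrow-derived macrophages need PPARγ for their response to IL-4, examined over vehicle and RSG together. All 24 arrays of the series entered it. They gave 12 differences, each the IL-4 culture minus the control culture of 1 mouse in 1 RSG state, on the log2 scale. Of these, 6 came from the 3 Pparg+/- LysCre mice (labelled PPARg +/-LysCre) and 6 from the 3 Pparg fl/- LysCre mice (labelled PPARg fl/-LysCre). Each difference is called an IL-4 response below, and the fl/- response minus the +/- response is called the genotype difference.

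All mice were C57Bl/6, and their age is not given in the sources used here. Both genotypes carried the LysCre transgene and 1 null Pparg allele. The other allele was wild type in Pparg+/- LysCre mice and floxed in Pparg fl/- LysCre mice, where Cre made under lysozyme control removes it in myeloid cells. The controls were therefore heterozygous and not wild type, and any cell in which Cre had not acted kept a working allele. By PCR, the paper reports that recombination was nearly complete in its macrophage-specific PPARγ-deficient mice. Femoral marrow was grown for 10 days in 20 ng/ml M-CSF, either alone (control) or joined by IL-4 at 20 ng/ml. Each of these received vehicle (DMSO:ethanol) or 1 µM rosiglitazone (RSG), a PPARγ agonist. Each genotype thus had 4 groups of 3 arrays, 1 array for each culture. Expression is a deposited ratio, for most probe sets relative to the median of the probe set, so that neither the brightness of a probe set nor the presence of a marker can be read from it. The macrophage identity of the cells is therefore as labelled. In bulk RNA, fewer cells of a kind and less RNA in each cell cannot be told apart.

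IL-4 binds a receptor that carries JAK kinases. These phosphorylate STAT6, which dimerizes, enters the nucleus and binds palindromic TTC/GAA elements. In macrophages this turns on the genes of alternative activation, among them Arg1, Retnla and Chil3. PPARγ is a nuclear receptor that binds direct repeats (DR1) as a partner of RXR. It is activated by fatty acid derivatives and by RSG, and its gene is itself induced by IL-4.

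The probe set of Pparg did not show the deletion. Its ratio without IL-4 was 0.362 to 0.579 on the 6 Pparg+/- arrays and 0.578 to 1.12 on the 6 Pparg fl/- arrays. With IL-4 it was 0.896 to 2.02 and 1.86 to 3.16, so the fl/- values lay above the +/- values with a small overlap. The position of its probes against the floxed exons is not stated in the sources used here, and this probe set is no check of the labels. Pparg transcript rose with IL-4 in both genotypes, by 1.37 ± 0.13 (SE) in +/- and 1.62 ± 0.13 in fl/- on the log2 scale. Fabp4, the fatty acid binding protein whose gene is a textbook PPARγ target, was lower in all 6 fl/- IL-4 cultures within each RSG state. With RSG and IL-4 its ratio was 1.24, 0.998 and 0.936 in +/- and 0.809, 0.503 and 0.483 in fl/-.

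IL-4 moved largely the same genes in both genotypes. Of 43349 probe sets tested, the Pparg+/- response was a rise for 3490 (8.05%) and a fall for 2706 (6.24%). The Pparg fl/- response was a rise for 3923 (9.05%) and a fall for 3247 (7.49%). A call needed 1.5-fold and a Benjamini-Hochberg adjusted p under 0.05 in limma. A total of 4864 probe sets were called in the same direction in both, which is 78.5% of the probe sets called in +/- and 67.8% of those called in fl/-. Of the 1324 called only in +/-, 89.8% had the same sign in fl/-, and of the 2298 called only in fl/-, 89.6% had the same sign in +/-. Over all probe sets the responses of the 2 genotypes, which share no array, correlated with r = 0.723. The median response of all probe sets was 0.11 in +/- and 0.12 in fl/-, and the responses are to be read against it. As deposited, 56.3% of the calls in +/- were rises, and with the arrays centred on their medians 2627 of 5855 were (44.9%).

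No probe set was called for the genotype difference itself, in limma with the mouse as a random block, in either direction (0% and 0%). The lowest adjusted p was 0.0775, 2 probe sets were under 0.1 and 9 were under 0.2. The methods' t-test on 1 mean difference per mouse called 0. That t-test called only 36 probe sets for the IL-4 response in +/- and 0 in fl/-, so its 0 here carries little weight. Without mouse 5 there were 4 calls, after quantile normalization 2, and with the 24 arrays taken as unpaired 9. An unadjusted p under 0.05 was found for 2092 probe sets, which is 4.83%. With at least 1.5-fold in addition, 915 had the larger response value in fl/- (2.11%) and 691 the smaller one (1.59%). The 6 differences of fl/- lay above all 6 of +/- in 68 probe sets (0.157%) and below all 6 in 61 (0.141%). Data were simulated with the real spread, with all changes placed in probe sets called for the mean IL-4 response of both genotypes. Of these, 25 of 100 changed 2-fold and 48 of 100 changed 4-fold were called among 43349, with 10 calls of unchanged probe sets. The median SE of the genotype difference was 0.284 in such probe sets and 0.337 over all. Changes in other probe sets, or fewer changes, were not simulated.

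The size of the genotype difference can still be bounded for many genes. Of the 7743 probe sets called for the mean IL-4 response of both genotypes, 90.8% had responses within 2-fold of each other and 78.8% within 1.5-fold. For 4185 of them (54.0%) the 95% confidence interval of the genotype difference lay wholly within 2-fold. For the others a difference of 2-fold was not excluded by these arrays. Over all 17737 genes, with 1 probe set each, 89.6% were within 2-fold and 56.5% had the interval within it. The responsive probe sets were thus near the shares of all genes.

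**Figure D1:**
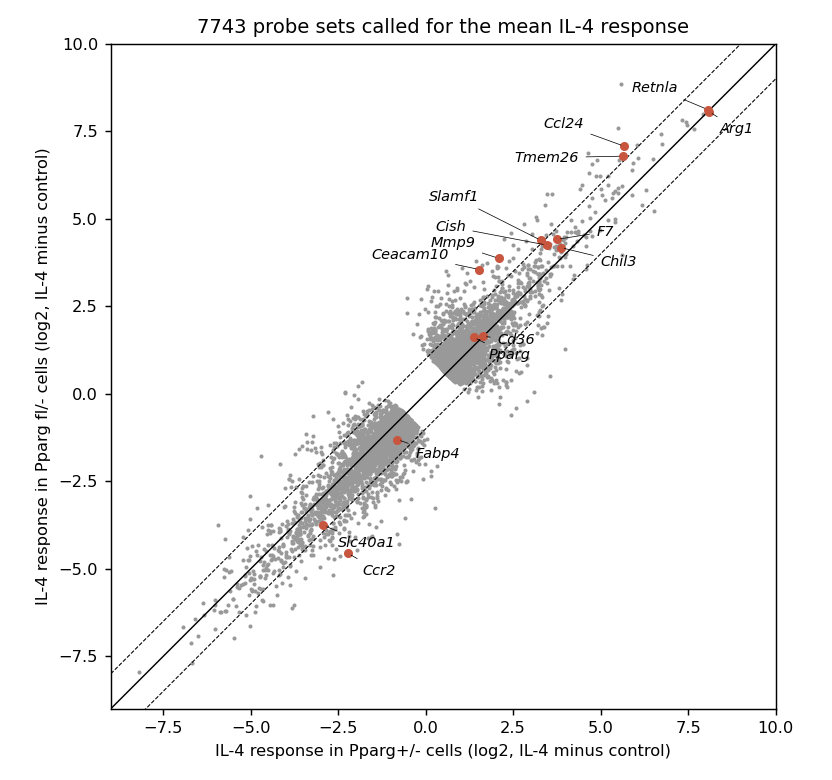
IL-4 response of Pparg fl/- cells against that of Pparg+/- cells, each the fitted log2 difference of IL-4 and control over 6 differences, for the 7743 probe sets called for the mean response. The solid line marks equal responses and the dashed lines a 2-fold difference, which 90.8% of the probe sets lie within, beside 89.6% of all genes. The empty centre is left by the 1.5-fold threshold on the mean response.

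Most members of the alternative activation list rose in both genotypes. Of 34 measured members of this list, 24 rose and 2 fell in +/- cells, and the same counts were found in fl/- cells. Of all probe sets, 8.05% rose and 6.24% fell in +/-, and 9.05% and 7.49% in fl/-. The list holds known IL-4 targets and was chosen with earlier results of these data known, so its rises are a description. Retnla (Fizz1, a secreted resistin-like protein) had the lowest listed ratio, 0.01, on all 12 control arrays. With IL-4 it was 2.45 to 3.12 in +/- and 1.99 to 3.14 in fl/-, so that it was at least 268-fold higher in +/- and at least 279-fold higher in fl/-. Arg1 (arginase) was also at 0.01 on all 12 control arrays and at 2.48 to 3.13 and 1.99 to 2.96 with IL-4. The groups overlap for both genes, and the genotype difference, which here compares the IL-4 cultures alone, was 0.06 (95% interval -0.27 to 0.38) for Retnla and -0.04 (-0.33 to 0.26) for Arg1. Chil3 (Ym1, a chitinase-like lectin) rose 14.5-fold in +/- and 18.1-fold in fl/-, with a genotype difference of 0.32 (-0.16 to 0.81). Mrc1, the mannose receptor, had fold changes of 1.44 and 1.36, which were under the 1.5-fold threshold in both genotypes, and a genotype difference of -0.09 (-0.37 to 0.19). For these 4 genes, differences of 2-fold lie outside the interval.

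Over the list, 26 of 34 members had the higher response in fl/- and 8 the lower one. The median genotype difference was 0.25, beside -0.01 over all 17737 genes. After quantile normalization the split was 19 to 15 and the median 0.04. None of the members was called. Those past 1.5-fold with an unadjusted p under 0.05 were 4 higher and 1 lower in fl/-, the latter being Il1rn, which is described below. Of all genes 2.31% and 1.54% were past that limit in the 2 directions.

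Cish, which encodes a STAT-induced suppressor of cytokine signalling, had the smallest p of the members with a higher response in fl/-. Its ratio without IL-4 was 0.199 to 0.244 in +/- and 0.145 to 0.235 in fl/-. With IL-4 the vehicle cultures had 2.05, 2.91 and 3.02 in +/- and 2.74, 4.24 and 4.39 in fl/-, and the RSG cultures 1.76, 2.41 and 2.47 in +/- and 3.17, 3.76 and 3.99 in fl/-. The control cultures overlap, and with RSG and IL-4 all 3 fl/- cultures lie above all 3 of +/-. The response was 11.0-fold in +/- and 19.0-fold in fl/-, and the genotype difference was 0.79 ± 0.17 (SE; adjusted p = 0.60). Socs1, a second feedback inhibitor of JAK kinases, had a genotype difference of 1.39 (0.17 to 2.61; adjusted p = 0.997), with 1 low response in vehicle of +/- mouse 1. Ccl24, the chemokine eotaxin-2, rose 51.2-fold in +/- and 135-fold in fl/- (difference 1.40, 0.55 to 2.25; adjusted p = 0.84). Its RSG cultures with IL-4 had ratios of 1.86 to 2.58 in +/- and 7.81 to 9.48 in fl/-, without overlap. In the IL-4 signalling list, which includes Cish and Socs1, 12 of 17 members were higher and 5 lower in fl/-, with a median of 0.08. Cish and Socs1 were its only 2 members past 1.5-fold with an unadjusted p under 0.05. Stat6 itself had a genotype difference of 0.01 (-0.28 to 0.29).

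**Figure D2:**
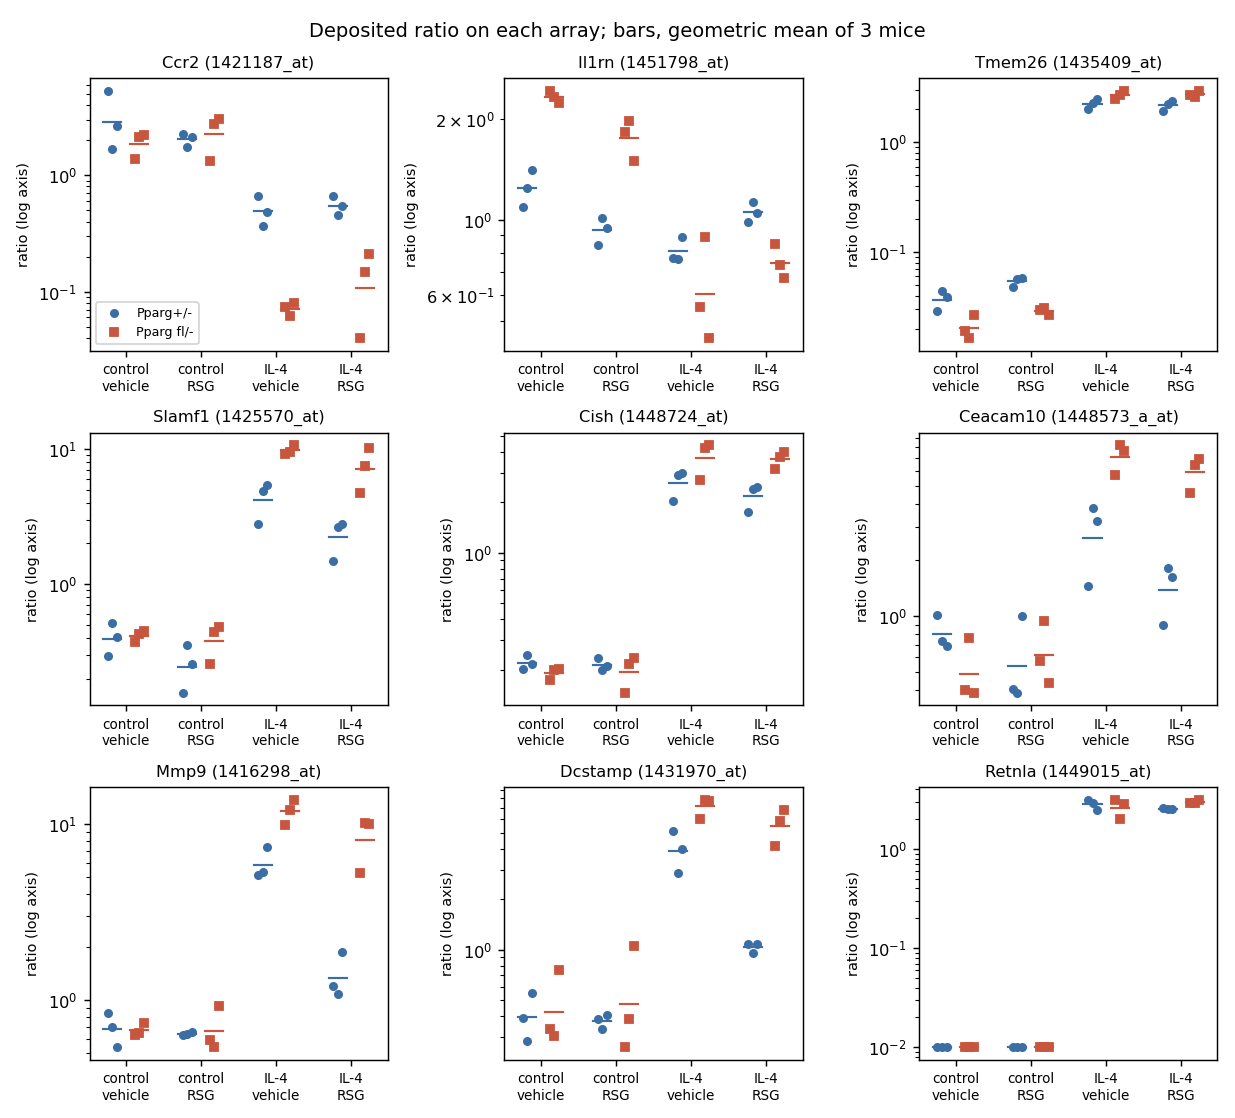
All 24 array values of 9 genes as deposited ratios on a log axis, split by IL-4 and RSG state. Circles are Pparg+/- and squares Pparg fl/- cultures of 3 mice each, and bars are geometric means. Within each RSG state the genotypes part with IL-4 in Ccr2, Slamf1, Ceacam10 and Mmp9, and already without IL-4 in Il1rn and Tmem26, while Retnla overlaps with IL-4 and is at the floor of 0.01 without it.

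The genes with the smallest p for the genotype difference were 12 with a higher and 12 with a lower response in fl/-, taken among probe sets past 1.5-fold in which the 6 and 6 responses did not overlap. None is called, the choice used the same contrast, and their values are a description. Several of them responded strongly to IL-4 in either genotype, and they are described below by whether the genotypes differed in the IL-4 cultures or in the control cultures.

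The promoters of the 24 genes of smallest p are shown here for those that hold a motif of interest and had a large response. RefSeq promoters of build GRCm38.p6 (250 bases before to 50 after the start) were found for 19 of the 24. The STAT6 palindrome (TTC and GAA with 4 free bases between them) was in 9 of the 27 promoters of these genes (7 genes), beside 6.95% of all 32851 promoters. The repeats of a DR1 element (AGGNCA, 1 free base, AGGNCA) were in 3 of the 27 (2 genes), beside 0.381% of all promoters. Both strands were searched, the motifs did not overlap in the sequences shown, and several of the genes had more than 1 promoter. Promoters of Ceacam10, Atat1 and Il1rn overlapped, so that 1 match in each gene was counted in more than 1 promoter. These genes were chosen by the genotype difference, and the shares were not tested. Capitals mark the matches, which are letters in a sequence and not shown to be bound. Tmem26 and Slamf1 hold the STAT6 palindrome, 2 times in Tmem26, and Ceacam10 and F7 hold the DR1 repeats, in F7 on the opposite strand. No match was found in the promoter of Ccr2.
Tmem26, chr10:68723496-68723795 (plus strand): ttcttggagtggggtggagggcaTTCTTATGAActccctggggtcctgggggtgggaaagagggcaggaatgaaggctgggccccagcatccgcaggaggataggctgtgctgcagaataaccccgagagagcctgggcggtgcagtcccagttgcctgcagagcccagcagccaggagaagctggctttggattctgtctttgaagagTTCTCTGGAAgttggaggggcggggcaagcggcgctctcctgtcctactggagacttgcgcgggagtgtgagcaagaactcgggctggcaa
Slamf1, chr1:171766882-171767181 (plus strand): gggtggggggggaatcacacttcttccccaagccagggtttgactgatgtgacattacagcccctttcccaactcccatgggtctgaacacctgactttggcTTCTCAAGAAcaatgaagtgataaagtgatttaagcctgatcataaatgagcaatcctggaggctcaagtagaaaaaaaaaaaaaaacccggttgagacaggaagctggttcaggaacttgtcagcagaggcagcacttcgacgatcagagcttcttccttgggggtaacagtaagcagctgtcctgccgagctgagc
Ceacam10, chr7:24776917-24777216 (plus strand): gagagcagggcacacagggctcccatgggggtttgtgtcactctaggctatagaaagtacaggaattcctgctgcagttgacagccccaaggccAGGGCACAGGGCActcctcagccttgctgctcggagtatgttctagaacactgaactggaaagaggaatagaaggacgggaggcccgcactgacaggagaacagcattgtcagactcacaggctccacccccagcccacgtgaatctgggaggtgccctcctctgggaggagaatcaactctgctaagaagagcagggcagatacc
F7, chr8:13025784-13026083 (plus strand): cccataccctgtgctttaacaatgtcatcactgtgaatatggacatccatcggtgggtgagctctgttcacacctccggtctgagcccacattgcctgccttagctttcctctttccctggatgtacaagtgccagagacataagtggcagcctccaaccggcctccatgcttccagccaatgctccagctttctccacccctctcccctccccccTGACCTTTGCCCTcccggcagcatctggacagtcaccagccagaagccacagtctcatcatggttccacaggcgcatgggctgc

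Ccr2 encodes the receptor for the monocyte chemokine CCL2. On the probe set of smallest p its ratio without IL-4 was 1.67 to 5.31 in +/- and 1.34 to 3.07 in fl/-. With IL-4 and vehicle it was 0.663, 0.367 and 0.485 in +/- and 0.0731, 0.0614 and 0.0792 in fl/-. With IL-4 and RSG it was 0.664, 0.457 and 0.539 in +/- and 0.0396, 0.146 and 0.211 in fl/-. The control cultures overlap, and every IL-4 culture of fl/- lies below every IL-4 culture of +/-. Ccr2 fell 4.66-fold in +/- and 23.5-fold in fl/-, a genotype difference of -2.34 ± 0.26 (SE; 95% interval -2.90 to -1.77; adjusted p = 0.0775). The other 3 probe sets of Ccr2 had differences of -0.16, -0.25 and -0.43, with unadjusted p from 0.41 to 0.63, so that they did not share the size seen on the first.

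Slamf1 encodes SLAM (CD150), a self-binding receptor of lymphocytes and macrophages. On its first probe set it was 0.157 to 0.515 and 0.255 to 0.480 without IL-4. With IL-4 and vehicle it reached 2.79, 4.86 and 5.44 in +/- and 9.21, 9.46 and 10.6 in fl/-, and with IL-4 and RSG 1.49, 2.64 and 2.77 in +/- and 4.73, 7.44 and 10.1 in fl/-. Within each RSG state the IL-4 cultures of the genotypes do not overlap, while the control cultures do. The rise was 9.84-fold and 20.9-fold, and the genotype difference 1.09 ± 0.15 (SE; adjusted p = 0.14). The other 2 probe sets gave 2.11 (unadjusted p = 0.0064) and 0.44 (0.54).

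Ceacam10, a secreted member of the carcinoembryonic antigen family, had control ratios of 0.388 to 1.01 in +/- and 0.387 to 0.938 in fl/-. With IL-4 it was 0.898 to 3.79 in +/- and 4.54 to 8.22 in fl/-. The 6 IL-4 cultures of each genotype do not overlap. Of its 3 probe sets, 2 gave genotype differences of 2.02 ± 0.40 and 2.28 ± 0.47 (SE; adjusted p = 0.49 and 0.56), and the other gave 0.77 (unadjusted p = 0.49 in limma). Nlrp10, a member of the NLR family, rose 3.15-fold in +/- and 6.22-fold in fl/- (difference 0.98 ± 0.17 SE; adjusted p = 0.355), with a level of fl/- minus +/- of -0.44 without IL-4 and 0.54 with IL-4. Arhgap24, a GTPase-activating protein for Rac, fell 3.11-fold and 7.78-fold. Its genotypes did not overlap in either state, with ratios of 1.35 to 2.02 in +/- and 2.13 to 2.85 in fl/- without IL-4, and 0.501 to 0.646 and 0.224 to 0.395 with IL-4. The level of fl/- minus +/- was thus 0.54 without IL-4 and -0.78 with IL-4 on the log2 scale. A second probe set of it had the opposite sign (1.39 ± 0.66).

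Il1rn encodes the IL-1 receptor antagonist and differed in the cultures without IL-4. On its first probe set these had ratios of 1.09, 1.24 and 1.41 with vehicle and 0.843, 1.01 and 0.948 with RSG in +/-. The fl/- cultures had 2.42, 2.31 and 2.22 with vehicle and 1.82, 1.96 and 1.5 with RSG, all above those of +/-. With IL-4 the ratios were 0.768 to 1.13 in +/- and 0.445 to 0.890 in fl/-, and the groups overlap. With IL-4 and RSG alone they do not, with 0.987, 1.13 and 1.05 in +/- and 0.847, 0.733 and 0.670 in fl/-. The level of fl/- minus +/- was 0.90 without IL-4 and -0.46 with IL-4 on the log2 scale. IL-4 thus lowered Il1rn 3.00-fold in fl/-, while the fitted change in +/- over both RSG states was a fall of 1.17-fold, which was not called. That +/- value joins a fall in vehicle (-0.62 ± 0.10 SD, log2) and a small rise in RSG (0.18 ± 0.04). In fl/- the response was -1.945 ± 0.50 (SD) in vehicle and -1.23 ± 0.17 in RSG. The genotype difference was -1.37 ± 0.17 (SE; adjusted p = 0.12), and the other 2 probe sets gave -1.20 and -0.93, so that all 3 had the same sign and passed an unadjusted p under 0.05.

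Tmem26, a transmembrane protein known as a marker of beige fat cells, was strongly induced. Without IL-4 its ratio was 0.0291 to 0.0580 in +/- and 0.0163 to 0.0310 in fl/-, and with IL-4 it was 1.94 to 2.46 and 2.46 to 2.94. The rise was 49.5-fold in +/- and 111-fold in fl/- (difference 1.16 ± 0.15 SE, adjusted p = 0.12), and its second probe set gave 0.67 ± 0.33. The level of fl/- minus +/- was -0.87 without IL-4 and 0.29 with IL-4 on the log2 scale. F7, coagulation factor VII, started lower in fl/- in all cultures (0.0754 to 0.130 against 0.132 to 0.176) and reached 1.82 to 2.29 against 1.97 to 2.20 with IL-4. Its rise was 13.5-fold and 21.4-fold. Pla2g2e, a secreted phospholipase A2, started higher in fl/- (0.411 to 0.593 against 0.215 to 0.349) and overlapped with IL-4, rising 7.20-fold in +/- and 3.96-fold in fl/-. Mybpc1, a myosin binding protein of muscle, had control ratios of 0.788 to 1.48 in +/- and 0.234 to 0.511 in fl/- and overlapped with IL-4. Its other 2 probe sets had the opposite sign.

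**Figure D3:**
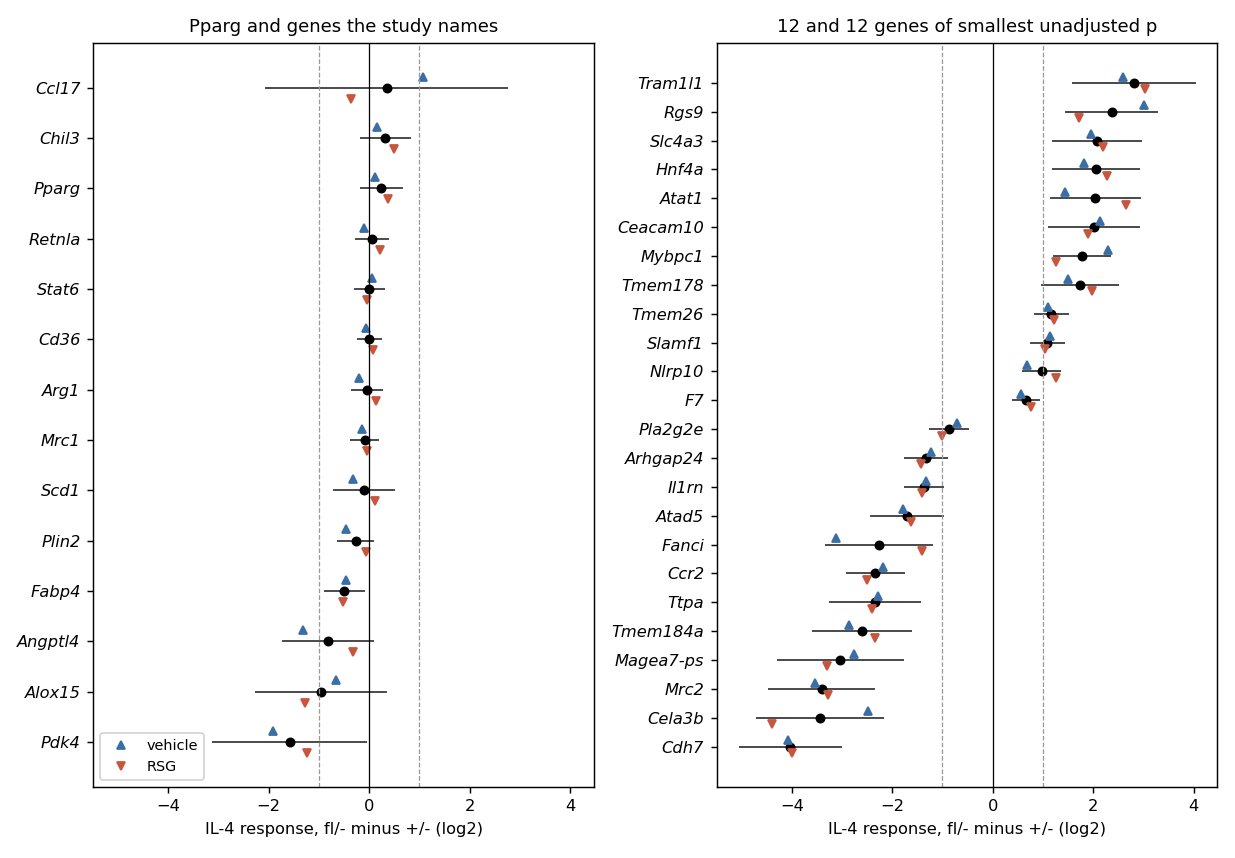
Genotype difference of the IL-4 response (log2, fl/- minus +/-) with its 95% interval from limma, for Pparg and the genes the study names (left) and for the genes of smallest unadjusted p (right). Triangles give the difference within vehicle (pointing up) and within RSG (pointing down), and dashed lines mark 2-fold. No difference was called. The genes on the right were chosen by this contrast, so that their distance from 0 was fixed by the choice.

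Only 8 probe sets were called in opposite directions in the 2 genotypes, 7 with a symbol and 1 without. The 7 were of Cdh7, Mrc2, Tmem184a, Cela3b, Mc2r, Tmem178 and Atat1. Mc2r is named for its opposite calls and the others for their small p for the genotype difference, so all 7 were chosen by their values. For Cdh7 this was 1 of 3 probe sets, for Mrc2 1 of 2, for Cela3b 1 of 4 and for Atat1 1 of 4. The second probe set of Mrc2 fell in both genotypes (-1.75 in +/- and -3.11 in fl/-). Cdh7 (a cadherin) had a response of 1.62 in +/- and -2.42 in fl/-, with an adjusted p of 0.0775 for the difference. Its fl/- responses ran from -4.03 to 0.16, and 1 of its other 2 probe sets had the opposite sign. Mrc2 (Endo180, a collagen receptor of stromal cells) had 1.22 and -2.19. Its control ratio was 0.667 to 2.54 in +/- and 0.894 to 4.11 in fl/-, and the summed ratio of the 10 stromal markers measured was 13.6 to 16.3 in +/- controls and 12.4 to 44.9 in fl/- controls, against 5.98 to 8.82 and 4.96 to 8.35 with IL-4. All 10 stromal markers had the lower response in fl/- (9 of 10 after either rescaling), with a median of -1.06. Vcan, a matrix proteoglycan, had control ratios of 0.384 to 2.18 in +/- and 0.886 to 8.37 in fl/-. This was 1 of 6 Vcan probe sets, of which 3 had a genotype difference of the same sign. The part of stromal cells in these values was not tested. On the chosen probe set, the responses of Hnf4a, Slc4a3, Tram1l1, Rgs9, Ttpa, Atad5, Fanci and Magea7-ps differed by 1.71 to 3.04 in size, with adjusted p from 0.355 to 0.581. Other probe sets gave smaller genotype differences. They were 0.13 and 1.35 for Hnf4a, 0.58 for Slc4a3, -0.51 and 0.81 for Rgs9, -0.50 for Atad5 and -0.17 for Fanci.

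Among the genes of lipid handling, where PPARγ is best known to act, no genotype difference was called either. Of 25 measured PPAR target genes, 8 rose and 3 fell in each genotype, 10 had a higher and 15 a lower response in fl/-, and the median genotype difference was -0.07. For 20 of the 25 the 95% interval lay within 2-fold. Over all genes, 49.0% had the higher response in fl/- and 56.5% had the interval within 2-fold. Rises were 8.05% of all probe sets in +/- and 9.05% in fl/-, and falls 6.24% and 7.49%. Cd36, the scavenger receptor for fatty acids, rose 3.11-fold in +/- and 3.12-fold in fl/-, with a difference of 0.01 (-0.23 to 0.24). Fabp4 fell with IL-4 in both, from a control ratio of 1.06 to 1.58 in +/- and 0.958 to 1.25 in fl/-. Its response was -0.81 in +/- and -1.30 in fl/- and the difference -0.49 (-0.89 to -0.10; adjusted p = 0.97), with -0.46 in vehicle and -0.52 in RSG. The other 3 probe sets of Fabp4 gave -0.47, -0.37 and -0.26. Angptl4, an inhibitor of lipoprotein lipase, had a ratio of 8.65 to 12.7 in +/- and 2.23 to 6.47 in fl/- with IL-4 and RSG, without overlap. Without IL-4 but with RSG it was 3.21 to 4.03 and 1.12 to 2.53, again without overlap. With vehicle it was 0.691 to 0.884 and 0.450 to 0.692 without IL-4, and 0.474 to 0.702 and 0.0684 to 0.412 with IL-4. The genotype difference of the IL-4 response was -0.81 (-1.72 to 0.09), with -1.31 in vehicle and -0.32 in RSG, and -0.17 on its second probe set. Abcg1, the cholesterol exporter, rose 3.12-fold and 4.73-fold (difference 0.60, 0.22 to 0.99; adjusted p = 0.85). Its level of fl/- minus +/- was -0.73 without IL-4 and -0.13 with IL-4 on the log2 scale. Pdk4, the kinase that holds pyruvate dehydrogenase off, fell 2.84-fold and 8.47-fold (difference -1.58, -3.10 to -0.05; adjusted p = 0.999). Scd1, on its first probe set, and Plin2 had intervals within 2-fold. The interval of Alox15 reached beyond it on the lower side and that of Ccl17 on both sides. The second probe set of Scd1 gave -0.67 ± 0.48 (SE).

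Of 25 measured genes of fatty acid oxidation, 3 rose in +/- and 2 in fl/-, none was past an unadjusted p under 0.05 with 1.5-fold, and for 24 the interval lay within 2-fold. The interval was within it for 56.5% of all genes, and 49.0% of all genes had the higher response in fl/-. All probe sets together had 8.05% rises and 6.24% falls in +/-, and 9.05% and 7.49% in fl/-. Cholesterol biosynthesis fell in both genotypes, with 14 of 20 genes called in +/- and 13 in fl/- and a median difference of 0.0033. The cell cycle genes fell strongly. Of 29 measured, 26 fell in +/- and 27 in fl/-, with median responses of -3.25 and -3.40. The lower response was in fl/- for 23 of 29 as deposited and for 16 of 29 after quantile normalization. Slc40a1 (ferroportin, the iron exporter) fell 7.60-fold and 13.5-fold (difference -0.83, -1.41 to -0.26; adjusted p = 0.905).

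RSG did not change the genotype difference of any probe set past the threshold (0% called, lowest adjusted p = 0.0843), while 3 were called without mouse 3. An unadjusted p under 0.05 was found for 2210 probe sets (5.10%), and 5.07% had 1.5-fold in addition. Over all probe sets the genotype differences in vehicle and in RSG, which come from the same mice but from different arrays, correlated with r = 0.02, and over the 7743 responsive ones with r = 0.16. The probe sets with the smallest p were of Rab27b, Ddr1, Rasal1 and Atp8a1, with changes of -6.22, 3.61, 3.96 and 4.76 between the states and adjusted p of 0.084, 0.13, 0.13 and 0.21. These are a description of the extremes.

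Among the fusion and matrix genes, Mmp9 and Dcstamp parted by genotype without overlap when IL-4 and RSG were both present. Mmp9, the gelatinase B of matrix degradation, had control ratios of 0.536 to 0.847 in +/- and 0.540 to 0.926 in fl/-. With IL-4 and vehicle it was 5.17, 5.36 and 7.40 in +/- and 9.95, 12.1 and 13.8 in fl/-. With IL-4 and RSG it was 1.19, 1.07 and 1.86 in +/- and 5.28, 10.1 and 10.0 in fl/-. The IL-4 cultures of the genotypes do not overlap in either state. The response was 4.26-fold in +/- and 14.7-fold in fl/- (difference 1.79 ± 0.36 SE, adjusted p = 0.49), the second probe set had the same sign, and the genotype difference was 1.03 in vehicle and 2.54 in RSG (change 1.51 ± 0.50, adjusted p = 0.87). Dcstamp, which encodes a protein required for the fusion of macrophages, followed the same order. With IL-4 and RSG it was 1.1, 0.956 and 1.1 in +/- and 4.14, 5.84 and 6.80 in fl/-, and with IL-4 and vehicle 2.87 to 5.12 and 6.05 to 7.85. Its genotype difference was 1.42 ± 0.36 (SE, adjusted p = 0.74). Acp5 (tartrate-resistant acid phosphatase) had a genotype difference of 0.76 (0.36 to 1.16; adjusted p = 0.69), with 1.07 in vehicle and 0.44 in RSG. Its level of fl/- minus +/- was -0.67 without IL-4 and 0.08 with IL-4 on the log2 scale. Of the 15 fusion and osteoclast genes, 7 rose in each genotype, beside 8.05% of all probe sets in +/- and 9.05% in fl/-. A higher response in fl/- was found for 8 in vehicle and 13 in RSG, and the change between the states was not tested for the list.

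Nr4a1 (Nur77, an early response nuclear receptor) rose 2.47-fold in +/- and 5.84-fold in fl/-, with a genotype difference of 1.24 (0.73 to 1.75; adjusted p = 0.48). Its IL-4 ratios were 1.04 to 1.92 in +/- and 1.87 to 2.87 in fl/-. Cd40, the costimulatory receptor, had IL-4 ratios of 0.618 to 1.60 in +/- and 1.39 to 2.42 in fl/- and a difference of 0.85 (0.27 to 1.43; adjusted p = 0.905). Of 24 inflammatory genes, 10 fell in each genotype, 1 rose in +/- and 4 in fl/-. Falls over all probe sets were 6.24% in +/- and 7.49% in fl/-, and rises 8.05% and 9.05%. Of 25 interferon-stimulated genes, 11 fell in +/- and 10 in fl/-. The median genotype difference of this list was 0.46 in vehicle, where 23 of 25 were higher in fl/-, and -0.03 in RSG, where 9 of 25 were, and no member was past an unadjusted p under 0.05 with 1.5-fold.

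The other gene groups are given as counts of calls, which were not tested between the genotypes. Of all probe sets, rises were 8.05% in +/- and 9.05% in fl/-, and falls 6.24% and 7.49%. Stress and immediate early genes rose in 13 of 20 cases in +/- and 14 in fl/-. The MHC class II list had 6 rises of 12 in +/- and 7 in fl/-, and LXR targets with cholesterol efflux genes had 3 and 5 of 14. Lipid synthesis and storage had 5 rises and 4 falls in +/- and 7 and 4 in fl/- among 28 genes. G0s2, an inhibitor of the triglyceride lipase ATGL, rose 3.38-fold and 6.92-fold (difference 1.03, 0.10 to 1.97; adjusted p = 0.999). Its level of fl/- minus +/- was -1.21 without IL-4 and -0.18 with IL-4 on the log2 scale. Hypoxia and glycolysis genes had 6 and 5 rises of 20, and the median genotype difference was -0.06. Scavenger receptors and genes of apoptotic cell uptake had 9 falls in +/- and 7 in fl/- of 22, with 11 members higher and 11 lower in fl/-. Iron and redox genes had 14 of 18 members lower in fl/-, with a median of -0.14. Of 20 matrix genes, 12 were higher and 8 lower in fl/-, and of 19 nuclear receptors and coregulators 13 and 6. In none of these lists was a genotype difference called.

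Markers of neutrophils fell with IL-4 in both genotypes. The summed ratio of 9 neutrophil markers was 21.0 to 28.8 in +/- and 13.6 to 21.6 in fl/- without IL-4, and 1.47 to 4.04 and 2.27 to 3.09 with IL-4. Of these 9, 7 fell in each genotype, beside falls in 6.24% of all probe sets in +/- and 7.49% in fl/-. The higher response was in fl/- for 7 and the lower one for 2, with a median of 0.27 (0.50 after quantile normalization). With IL-4, 5 values of these markers in +/- and 8 in fl/- lay at the floor of 0.01, and none did without IL-4. Falls that end at the floor are lower bounds, which limits the genotype differences of those markers. Ltf (lactoferrin) fell 52.8-fold in +/- and 17.8-fold in fl/- (difference 1.57, 0.18 to 2.97), and Mpo (myeloperoxidase) 1.84-fold and 4.33-fold (difference -1.23, -1.95 to -0.52). The part of neutrophils in these values was not tested. Of the 10 macrophage markers, 5 had a higher and 5 a lower response in fl/-, with a median of 0.01 and 8 intervals within 2-fold.

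The strength of the whole response was compared by mouse. The mean response of a mouse was regressed on the mean of the other 5 mice over the 7743 responsive probe sets, where a slope of 1 is a response as strong as theirs. The slopes were 0.855, 0.975 and 0.928 in +/- mice and 1.065, 1.079 and 0.956 in fl/- mice. Mouse 6 lies among the +/- mice and the other 2 fl/- mice lie above them. The means were 0.919 ± 0.060 and 1.03 ± 0.067 (SD), and the difference of 0.114 gave p = 0.20 in a two-sided exact permutation test over the 6 mice, which cannot go below 0.10. It was 0.0621 without mouse 1 and 0.182 without mouse 6. Over the same probe sets the fl/- response was larger than the +/- response in 63.0%, with a median ratio of responses of 1.09. Among the 4287 responsive probe sets that rose, 207 (4.83%) had a nominally higher and 63 (1.47%) a nominally lower response in fl/-. Among the 3456 that fell, these were 47 (1.36%) and 159 (4.6%). Of all probe sets 2.11% were nominally higher and 1.59% nominally lower. Nominal means 1.5-fold or more with an unadjusted p under 0.05. These counts come from the same 6 mice as the slopes and were not tested.

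**Figure D4:**
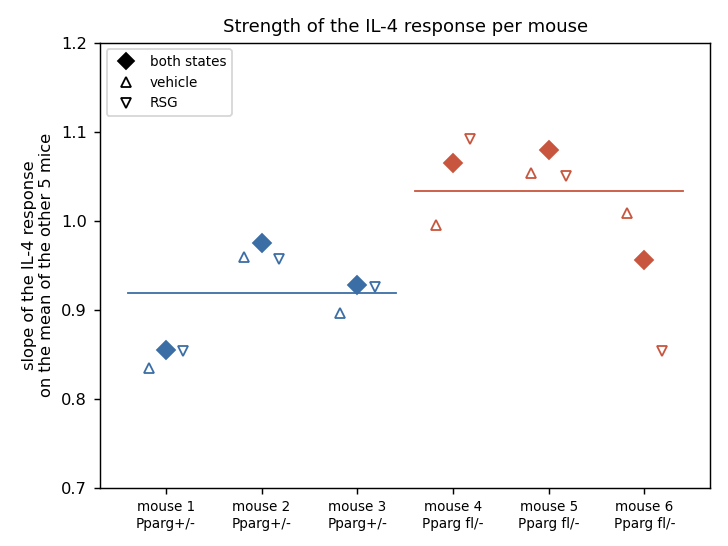
Slope of the IL-4 response of each mouse on the mean of the other 5 mice over 7743 responsive probe sets. Diamonds use both RSG states, open triangles 1 state, and lines are genotype means (0.919 and 1.03). The axis does not start at 0. The slopes of mouse 6 overlap those of the Pparg+/- mice over both states and in RSG. In vehicle alone the slopes were 0.834, 0.959 and 0.896 in +/- and 0.995, 1.05 and 1.01 in fl/-, without overlap.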

How the data were processed

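Cultured macrophages of 6 mice were measured on Affymetrix mouse whole-genome arrays. The authors made the deposited ratio by GC-RMA in GeneSpring, division by the 50th percentile of the array and division by the median of the probe set. A last division by the vehicle control, named in the methods, was not seen in the values. The median ratio of 82.21% of probe sets lay within 0.005 of 1 and that of 17.14% under 0.95. What those were divided by is not given in the sources used here, nor is the version of GCOS, which the submitters' processing notes also name. No depth applies to arrays, and their number limits the precision.

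Ratios were raised to a floor of 0.01 (124 values lie at it) and taken to log2. Of 45101 probe sets, 64 controls and 1688 that reached the median of the array on fewer than 3 arrays were left out. A symbol was unique for 34945 probe sets, of which 34741 matched RefSeq by identifier. 932 had several and 9160 none. IL-4 minus control was taken within each mouse and RSG state. The labels give a mouse number to each culture, which pairs the cultures by animal. The values show little of it, since after removing group means the 2 differences of a mouse correlated at -0.010 to 0.028 (consensus 0.064). Genotype was fitted with limma 3.58.1 in R 4.3.3, with RSG state as a stratum and the mouse as a random block (duplicateCorrelation, statmod 1.5.0). Tests were two-sided with Benjamini-Hochberg adjustment over 43349 probe sets, and a call needed 1.5-fold and an adjusted p under 0.05. In the lists, the probe set with the smallest residual SD stands for a gene. The 12 differences thus entered nearly as independent values, with 10.38 degrees of freedom, and p-values and intervals measure mainly the spread between differences of single cultures and less that between 3 and 3 mice.

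Members and gene lists were chosen with earlier results of these data known. Named were Pparg and genes the study discusses, the 12 genes of smallest p in each direction past 1.5-fold without overlap, up to 3 members per list with an unadjusted p under 0.05 and 1.5-fold, and the 4 genes with the smallest p for RSG dependence. The fit was tested on simulated data.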

Additional observations from a re-analysis of the deposited data

Results flagged for a closer look

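In 11 of 142 groups of 6 responses of the named probe sets, 1 response stood apart from the other 5 by a gap that was large against the range of the group (Dixon's ratio), where chance gives about 1 in 20. All values are log2 responses to IL-4. The vehicle response of fl/- mouse 5 was the lowest of its genotype for Retnla (7.64, with the nearest at 8.16) and Arg1 (7.64, nearest 8.06). In +/- mouse 1 the vehicle response was low for Socs1 (0.56, nearest 2.33) and Ighm (-0.34, nearest 0.49), and the RSG response was low for Ddr1 (-1.97, nearest -1.33). In +/- mouse 2 the RSG response of Ttpa was low (-3.06, nearest -1.27) and the vehicle response of Abcg1 was high (2.14, nearest 1.64). In +/- mouse 3 the RSG response of Tmem178 was low (-1.72, nearest -0.90). In fl/- mouse 4 the vehicle response of G0s2 was high (4.92, nearest 2.77), in fl/- mouse 5 that of Mmp8 was high (0.66, nearest 0.28), and in fl/- mouse 6 that of Pax5 was low (-1.85, nearest -0.30).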

How the results depend on the processing

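The count of probe sets called for the genotype difference stayed at 0 with a 2-fold threshold, array medians centred, mouse means and the methods' t-test among others, and rose above 0 in 4 settings and without mouse 5. It was 1 with a floor of 0.05, 2 after quantile normalization, 2 with no replicate block and the 12 differences taken as independent, and 9 on the 24 arrays with no replicate block and no pairing. Without 1 mouse it ran from 0 to 4, with 4 without mouse 5. RSG dependence gave 1 call on the 24 arrays with no replicate block and no pairing, and 0 to 3 without 1 mouse, with 3 without mouse 3. Ccr2 was called with the floor of 0.05, with no replicate block and after quantile normalization. Cdh7 was called with no replicate block, after quantile normalization and without mouse 5, and Il1rn on the 24 arrays and without mouse 5.

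The 6196 probe sets called for the IL-4 response in +/- became 3375 at 2-fold, 2497 with vehicle only, 3247 with RSG only and 36 by the methods' t-test on 1 mean difference per mouse, and 4808 to 6354 without 1 mouse. The 7170 in fl/- became 4129, 3173, 4148 and 0 in the same order, and 5863 to 6921 without 1 mouse. The difference in strength of 0.114 was 0.0559 after quantile normalization, 0.0835 with RSG only and 0.109 with vehicle only, and 0.0621 to 0.182 without 1 mouse.

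The sign of the genotype difference of the named genes turned in 31 of 1631 values. With the median over the probe sets of a gene it was 0.031 for Arhgap24, -0.12 for Atp8a1, 0.14 for Ddr1, -0.018 for Hamp, 0.40 for Rab27b and -0.048 for Stat6. After quantile normalization it was -0.13 for Cd36, -0.10 for Retnla and -0.039 for Stat6. With vehicle only it was -1.55 for Atp8a1, -0.056 for Cd36, 2.40 for Rab27b, -0.15 for Rasal1 and -0.10 for Retnla. With RSG only it was 0.14 for Arg1, -0.37 for Ccl17, 1.35 for Ddr1, -0.021 for Il12b, 0.12 for Scd1 and -0.037 for Stat6. Without the vehicle difference of mouse 1 it was 0.018 for Arg1 and -0.19 for Ccl17. Without 1 mouse it ran from -0.075 to 0.036 for Arg1, -1.15 to 1.22 for Ccl17, -0.038 to 0.056 for Cd36, -0.18 to 0.015 for Mrc1, -0.00028 to 0.16 for Retnla and -0.074 to 0.076 for Stat6. The cause of these changes was not tested.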
